A study of Homo sapiens with 13 samples.

Results

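The genes described here are 9 neuroendocrine markers and the glucagon precursor gene GCG, 10 symbols in all, in RNA sequencing of LNCaP-abl cells. They were picked by symbol, with their values in these same libraries known, so every comparison with the control below is a description and carries no test. Of the 10, 9 had an entry among the 22613 gene entries of the deposited files, and CHGA was not analysed here. GCG, ENO2, NCAM1, SYT1 and STMN2 reached the minimum mean level of 0.5 FPKM (fragments per kilobase of a gene, relative to the library size) that defined the 15780 analysed genes. STMN2 was just inside that limit with a mean of 0.540 FPKM, and SYP, at 0.377 FPKM, was the nearest outside it. SCG2 at 0.321 FPKM, CHGB at 0.122 FPKM and UCHL1 at 0.0966 FPKM lay further below.

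LNCaP-abl cells descend from the prostate cancer line LNCaP and grow without androgen, here per the labels in charcoal-stripped serum. The 12 knockdown libraries came from cells transfected with siRNA pools against the Polycomb genes EED and EZH2, the repair genes BRCA1 and BRCA2, the genome architecture genes CTCF and RAD21, the transcription factors FOXA1 and FOXM1, the chromatin genes KDM1A and SMARCA4, or the noncoding RNAs MALAT1 and PCAT1. The control was 1 library from cells given a control siRNA, labelled siControl2. RNA was taken 72 h after transfection in all 13. The values are from whole cultures, so fewer cells of a type and less RNA per cell cannot be told apart. Each group is 1 library of 1 cell line, with no replicate, so no difference below can be set against replicate error, and all 12 comparisons share the same control library. Differences are knockdown minus control on the log2(FPKM + 1) scale, which understates changes of genes near 0, and 2-fold means a difference of 1 on that scale. The sequencing depth behind each library is unknown.

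In 8 of the 11 libraries whose target was analysed, the targeted gene was lower than in any other library. Among these 8, EED was at 4.13 FPKM in siEED and 8.94 FPKM in the control. That was a difference of -0.95, just short of 2-fold on the log2(FPKM + 1) scale. FOXA1 was still at 60.6 FPKM in siFOXA1, against 137 FPKM in the control, a difference of -1.16. BRCA1 in its own library was the 3rd lowest of 13, at 1.83 FPKM against 11.1 FPKM in the control, a difference of -2.10. BRCA2 in its own was the 9th lowest, at 1.23 FPKM against 3.25 FPKM in the control, a difference of -0.93. MALAT1 stood at 21.7 FPKM where it was targeted and at 16.4 FPKM in the control, so it was not low in the library labelled siMALAT1, and no direction for MALAT1 loss is drawn from that library. PCAT1 was not analysed here. Luminal prostate markers were abundant in all 13 libraries. The keratin gene KRT8 was between 84.2 and 223 FPKM and the homeobox gene HOXB13 between 77.6 and 160 FPKM. KLK3, the gene of prostate-specific antigen, was no higher than 0.524 FPKM. Among markers of other cells, the basal keratin gene KRT14 was no higher than 0.83 FPKM, the fibroblast collagen gene COL1A1 no higher than 1.80 FPKM and the endothelial gene PECAM1 no higher than 1.01 FPKM. The leukocyte gene PTPRC reached 3.14 FPKM in siRAD21 and the macrophage gene CD68, which other cells also express, 11.1 FPKM in siFOXM1. Of 4 leukocyte markers listed, these 2 had an entry. PTPRC was lowest in siFOXA1 at 0.1 FPKM and siEZH2 at 0.212 FPKM, against 0.946 FPKM in the control. GCG was lowest in the same libraries. CD68 was above its control level of 5.19 FPKM there, at 9.15 FPKM in siFOXA1 and 7.61 FPKM in siEZH2. In siFOXM1, where GCG was at 2.84 FPKM against 16.6 FPKM in the control, PTPRC was at 1.10 FPKM. The part of leukocytes in the GCG levels was not tested.

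Neuroendocrine cells store peptide hormones in dense-core granules together with granins such as chromogranin B and secretogranin II, and release them when calcium rises. They share with neurons vesicle proteins such as synaptophysin and synaptotagmin, the adhesion molecule NCAM1 (CD56), the neuronal enolase ENO2 and the deubiquitinase UCHL1. In prostate cancer these markers are used to recognise neuroendocrine differentiation, which can accompany resistance to androgen deprivation. GCG encodes proglucagon, which is cut into glucagon in pancreatic alpha cells and into glucagon-like peptides in intestinal L cells. In non-neuronal cells the repressor REST, with corepressors that include KDM1A, keeps many neuronal genes silent, STMN2 among them.

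The sequences upstream of GCG and ENO2 are shown because these were the members that reached a 2-fold difference in some library, and because they contrast in base composition. RefSeq promoter windows on GRCh38.p14, a later build than the hg19 of the deposited values, were at hand for 6 of the 10 genes. Each line gives the 250 bases before the annotated start, 5′ to 3′ on the gene's strand. GCG lies on the minus strand at chr2:162152248-162152497 and ENO2 on the plus strand at chr12:6914330-6914579.
GCG: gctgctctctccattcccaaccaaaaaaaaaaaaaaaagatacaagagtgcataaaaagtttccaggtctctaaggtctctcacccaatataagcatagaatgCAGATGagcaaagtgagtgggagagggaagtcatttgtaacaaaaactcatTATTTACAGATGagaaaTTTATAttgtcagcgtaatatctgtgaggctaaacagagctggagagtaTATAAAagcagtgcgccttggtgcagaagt
ENO2: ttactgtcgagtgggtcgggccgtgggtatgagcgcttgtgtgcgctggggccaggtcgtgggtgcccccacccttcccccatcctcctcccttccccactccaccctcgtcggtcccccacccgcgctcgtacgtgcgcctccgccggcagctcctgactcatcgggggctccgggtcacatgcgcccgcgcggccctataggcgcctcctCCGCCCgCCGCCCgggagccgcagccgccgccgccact
Capitals mark matches, on either strand, to the TATA box TATAAA, the forkhead core TNTTTAC, the E-box CAGATG, the cyclic AMP response element TGACGTCA and the GC box GGGCGG.

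The window before GCG held 38.4% G and C with 2 CpG dinucleotides, and that before ENO2 held 74% with 30, against medians of 58% and 11 over 35116 windows of the same length. GCG had 2 TATA box matches, the nearer beginning 30 bases before the start, and 10.7% of all windows held that motif. The forkhead core matched once in GCG, 96 to 90 bases before the start, sharing its last base with the first base of an E-box match. It was found in 9.58% of all windows, and the E-box, with 2 matches in GCG, in 12.2%. ENO2 had matches to the GC box alone, 2 of them, and 42.6% of all windows had that motif. SYT1 had 1 GC box match and SYP 4. UCHL1 had 1 match each to the TATA box, the E-box and the GC box. The cyclic AMP response element was found only in the window of CHGA among the 6, and in 1.65% of all windows. A match describes letters in these windows and is no evidence of binding.

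GCG varied most of all the members. It was at 1.18 FPKM in siEZH2, 1.19 in siFOXA1, 1.66 in siEED, 1.96 in siKDM1A and 2.84 in siFOXM1, against 16.6 FPKM in the control. Between these and the control lay siBRCA2 at 4.33 FPKM, siSMARCA4 at 4.37, siBRCA1 at 7.41 and siCTCF at 9.14 FPKM. The remaining levels were 16.0 FPKM in siRAD21, 16.9 in siPCAT1 and 30.6 in the library labelled siMALAT1, against the same 16.6 FPKM. GCG was thus below the control in 10 of the 12 knockdown libraries. The libraries around the control level were siRAD21 and siPCAT1, and the library labelled siMALAT1 stood above it.

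**Figure D1:**
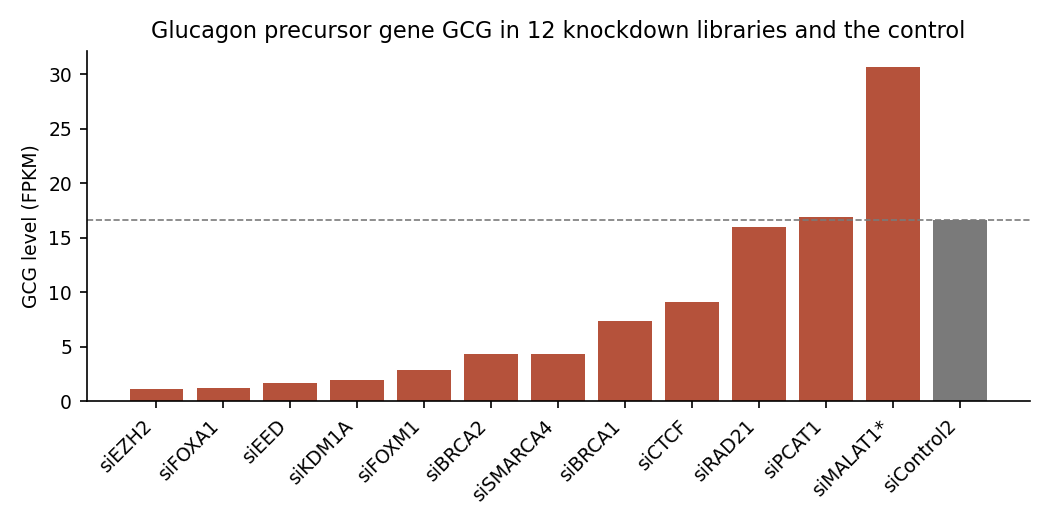
GCG level in FPKM (vertical axis, linear, from 0) in 12 knockdown libraries, ordered by level, and in the control library at the right (grey), 1 library per bar. The dashed line marks the control at 16.6 FPKM, 9 bars lie clearly below it between 1.18 and 9.14 FPKM, siRAD21 and siPCAT1 lie beside it, and the asterisk marks the library whose own target MALAT1 was not low.

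In 8 libraries GCG was at least 2-fold lower than in the control. GCG was 1 of 487 such genes in siEZH2, where it differed by -3.02 and 3.09% of the analysed genes were at least 2-fold lower. The difference was -3.01 in siFOXA1, where 4.22% of genes were at least 2-fold lower, and -2.20 in siFOXM1, where 3.6% were. Knockdown of EED, which like EZH2 encodes a subunit of the Polycomb repressive complex PRC2, was accompanied by a difference of -2.73, and 0.741% of genes were 2-fold lower there. In siKDM1A, whose target is a histone demethylase, the difference was -2.58 and the background share 1.55%. GCG had the 4th lowest difference of all 15780 genes in siEED and again in siKDM1A, the 13th lowest in siBRCA2, the 24th in siEZH2 and the 41st in siFOXA1. In siBRCA2 it differed by -1.73, in siSMARCA4 by -1.72 and in siBRCA1 by -1.07, with background shares of 0.76%, 1.97% and 0.944%. In FPKM, the control level was 14.1 times that in siEZH2, 10.01 times that in siEED and 8.49 times that in siKDM1A. These calls rest on 1 control. With the other 11 knockdowns' median as the comparator, GCG was at least 2-fold lower in 3 libraries in place of 8, and stood above 0 at 0.93 in siCTCF, 0.66 in siBRCA1, 0.011 in siSMARCA4 and 1.67 in siRAD21.

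The other 4 libraries did not reach 2-fold for GCG or any other member. GCG differed by -0.80 in siCTCF, where 2.85% of genes were at least 2-fold lower. In siRAD21, whose target is a cohesin subunit, the difference was -0.06 and the share 1.88%. In siPCAT1 the difference was 0.02 and the share 1.33%. In the library labelled siMALAT1 it was 0.84, the 124th highest of 15780 genes, with 1.57% of genes at least 2-fold lower. No member was at least 2-fold higher in any library, while 1.1% of all gene and library pairs were. Over the 13 libraries the range of GCG was 3.86 log2 units, the 40th largest of the analysed genes, and it was 3.04 without the library labelled siMALAT1. With GCG included, 139 analysed genes, or 0.881%, were at least 2-fold lower in 8 or more of the 12 libraries.

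Cell division genes and interferon-stimulated genes also differed from the control in these libraries. Of 120 differences of 10 mitotic genes, 92 were at least 2-fold lower, and of 120 differences of 10 interferon-stimulated genes, 54 were at least 2-fold higher, beside 2.04% lower and 1.1% higher over all gene and library pairs. In siEED, where GCG differed by -2.73, the mitotic median was -0.28 and the interferon-stimulated median 0.30. In siCTCF, where GCG differed by -0.80, the mitotic median was -2.58. The library labelled siMALAT1 had a mitotic median of -1.56 with the highest GCG level of all. The interferon-stimulated median was 5.94 in siFOXM1 and 4.29 in siFOXA1, with GCG at -2.20 and -3.01, and it was 0.86 in siEZH2, where GCG was lowest. The mitotic median was -3.16 in siEZH2 and -3.51 in siFOXA1, the libraries with the lowest GCG levels. The part of either list in the GCG levels was not tested.

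**Figure D2:**
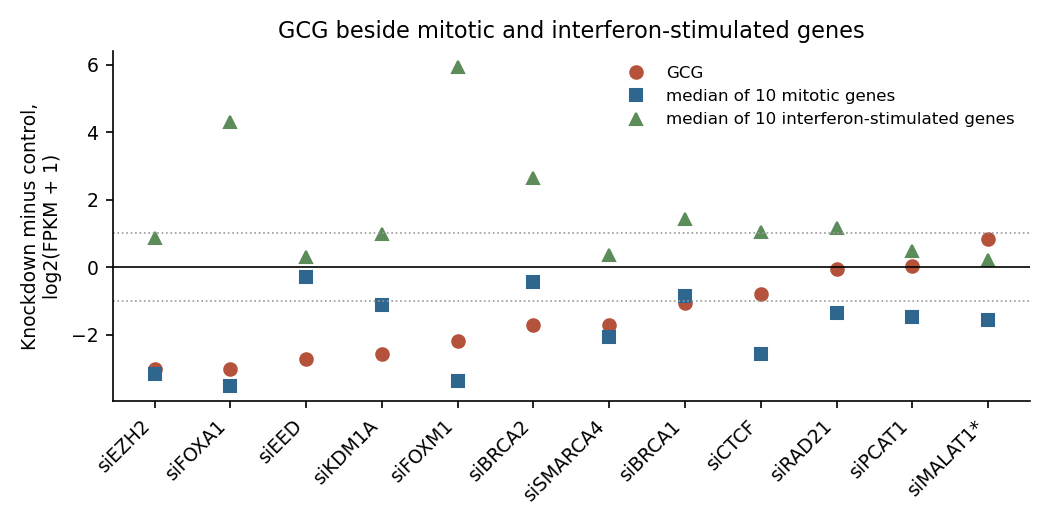
Difference from the control on the log2(FPKM + 1) scale (vertical axis) in each of 12 knockdown libraries, ordered by GCG, for GCG (circles) and for the medians of 10 mitotic genes (squares) and 10 interferon-stimulated genes (triangles). Dotted lines mark 2-fold, and the mitotic median lies at -0.28 in siEED where GCG lies at -2.73, with the asterisk marking the library whose target MALAT1 was not low.

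The genes whose levels over the 13 libraries were most like those of GCG, by Pearson's r among 12993 other named genes, were ORC4, TMEM212 and GPR126. ORC4, a subunit of the origin recognition complex, had an r of 0.948 and lay between 36.1 FPKM in siEZH2 and 63.8 FPKM in siPCAT1, against 59.1 FPKM in the control. TMEM212 had an r of 0.931, and the adhesion receptor gene GPR126 an r of 0.912. None of these genes was 2-fold from the control in any library. Over the 13 libraries ORC4 spanned 0.80 log2 units, TMEM212 0.71 and GPR126 1.09, against 3.86 for GCG. These correlations are the highest of many, the 13 points share a cell line, and the values carry no test.

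DPP4, whose product inactivates glucagon-like peptide 1, is the nearest protein-coding gene on the lower-coordinate side of GCG on chromosome 2. DPP4 was lowest in siEZH2 at 1.02 FPKM and highest in the library labelled siMALAT1 at 3.86 FPKM, against 2.44 FPKM in the control. On the log2(FPKM + 1) scale DPP4 was 2-fold away in no library. Over the 13 libraries its r with GCG was 0.58. In siKDM1A the genes diverged, with DPP4 at 2.60 FPKM and GCG at 1.96 FPKM, against 2.44 and 16.6 FPKM in the control. FAP, the neighbour on the other side, was not analysed here. Of the 20 nearest neighbours of the 10 members, 15 were analysed. Among them 1 difference in 1 library reached 2-fold, TRMT6 beside CHGB, at 3.91 FPKM in siRAD21 and 9.91 FPKM in the control.

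**Figure D3:**
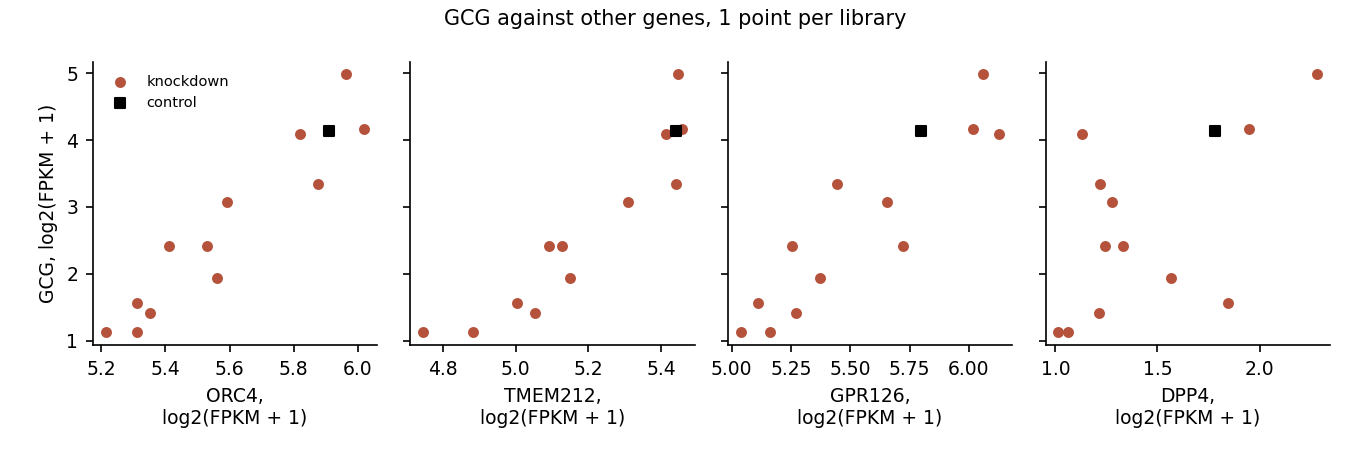
GCG level (vertical axis) against the levels of ORC4, TMEM212, GPR126 and the neighbouring gene DPP4 (horizontal axes), all as log2(FPKM + 1), with 1 point for each of 12 knockdown libraries (circles) and the control (square). The horizontal axes differ in span and do not start at 0, and Pearson's r over the 13 points was 0.948 for ORC4, 0.931 for TMEM212, 0.912 for GPR126 and 0.58 for DPP4.

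The granins, which help to form dense-core granules, were listed at very low levels. CHGB, chromogranin B, lay between 0.0065 FPKM in siCTCF and 0.257 FPKM in siEZH2, against 0.163 FPKM in the control, with a median of 0.120 over the 13 libraries. SCG2, secretogranin II, had a narrow span from 0.207 FPKM in siEED to 0.390 FPKM in siSMARCA4, against 0.344 FPKM in the control. On the log2(FPKM + 1) scale the lowest difference of CHGB was -0.21 and that of SCG2 -0.16. SCG3, SCG5 and VGF, further granule proteins, had no level above 0.447 FPKM in any library.

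Enzymes that handle granule cargo were better represented. Of a list of 11 granule genes, 8 had an entry and 3 were analysed, and 0 of their 36 differences reached 2-fold. CPE, a carboxypeptidase that trims prohormones, was between 55.5 FPKM in siEED and 101 FPKM in siPCAT1, against 72.3 FPKM in the control. PCSK1N, which encodes an inhibitor of a prohormone convertase, was lowest in siEED at 22.9 FPKM and highest in siPCAT1 at 58.4 FPKM, against 42.8 FPKM in the control. PAM, the enzyme that amidates peptides, had its lowest and highest levels in the same libraries, 0.680 and 2.60 FPKM, against 1.87 FPKM in the control. So these 3 genes were lowest in siEED, where GCG was also low, and highest in siPCAT1, where GCG stood at 16.9 FPKM.

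Of 19 peptide hormone genes on a list, 9 had an entry and 7 were analysed, GCG included. Of their 84 differences, 8 were at least 2-fold lower, all of them GCG, and 2 were at least 2-fold higher, both of CARTPT. CARTPT, the precursor of a neuropeptide known from the hypothalamus, was at 2.9 FPKM in siFOXA1 and 1.55 FPKM in siEZH2, against 0.239 FPKM in the control, and no higher than 0.786 FPKM in the other 10 knockdown libraries. GCG was lowest in siFOXA1 and siEZH2 too. The median of CARTPT over the 13 libraries was 0.363 FPKM. It reached the minimum mean of 0.5 FPKM only through siFOXA1 and siEZH2, so the filter favoured its 2 calls. The neurotensin gene NTS (2.17 to 5.38 FPKM), the parathyroid hormone-like gene PTHLH (3.64 to 8.22 FPKM), the amylin gene IAPP (1.49 to 2.05 FPKM) and the ghrelin gene GHRL (0.825 to 3.06 FPKM) stayed within 2-fold of the control on the log2(FPKM + 1) scale in all 12. GHRL was highest in siKDM1A, against 1.43 FPKM in the control, a difference of 0.74.

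Of the synaptic vesicle markers, SYT1 showed no 2-fold difference, and SYP lay below the minimum mean level. SYT1, the calcium sensor of vesicle release, was at 0.807 FPKM in siKDM1A, 0.864 in siEED, 1.17 in siFOXM1, 1.25 in siBRCA1, 1.37 in siBRCA2, 1.39 in siCTCF, 1.61 in siSMARCA4, 1.66 in siEZH2, 1.86 in siPCAT1, 1.9 in siFOXA1, 2.05 in the library labelled siMALAT1 and 2.13 in siRAD21, against 1.45 FPKM in the control. The control thus stood in the middle of the order, with 6 knockdown libraries on each side. The largest differences of SYT1 were -0.44 in siKDM1A and 0.35 in siRAD21. SYP, synaptophysin, lay between 0.153 FPKM in siRAD21 and 0.695 FPKM in siEED, against 0.449 FPKM in the control. At that control level SYP could not be 2-fold lower on the log2(FPKM + 1) scale. With an offset of 0.1 its difference in siRAD21 was -1.12. The order of libraries differed from that of SYT1, since siRAD21 was the lowest for SYP and the highest for SYT1, and siEED the highest for SYP and the second lowest for SYT1. SYPL1, a widely expressed relative of SYP, was at 26 FPKM in siEZH2, a difference of -1.58, and at 131 FPKM in siFOXA1, against 79.8 FPKM in the control.

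Of 15 exocytosis genes, 11 had an entry and 7 were analysed, and 0 of their 84 differences reached 2-fold. SNAP25, a core component of the neuronal fusion machinery, was listed at 0 in the control and reached no more than 0.0328 FPKM. The more widely expressed vesicle protein VAMP2 was between 16.5 FPKM in siEZH2 and 36.9 FPKM in siFOXM1, against 24.9 FPKM in the control. SYT7, a calcium sensor of lysosomes and granules, reached 7.50 FPKM in siFOXA1, against 4.08 FPKM in the control, and the small GTPase gene RAB3B 8.52 FPKM in siFOXM1, against 4.18 FPKM in the control.

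NCAM1 was below the control in all 12 knockdown libraries, by less than 2-fold on the log2(FPKM + 1) scale. The levels were 1.11 FPKM in siEED, 1.22 in siBRCA1, 1.23 in siRAD21, 1.58 in siBRCA2, 1.75 in siSMARCA4, 1.91 in siEZH2, 1.95 in siPCAT1, 2.09 in the library labelled siMALAT1, 2.11 in siFOXM1, 2.19 in siCTCF, 2.25 in siKDM1A and 2.36 in siFOXA1, against 2.56 FPKM in the control. The 3 lowest libraries stood apart from the next by more than the others did from each other, though none was 2-fold lower. With the offset of 1 the differences ran from -0.76 in siEED to -0.08 in siFOXA1, all set against the same control value. NCAM2, a paralog known from olfactory neurons, was more abundant, at 8.09 FPKM in siEED and 21.6 FPKM in siPCAT1 as its extremes, against 15.4 FPKM in the control.

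STMN2, a microtubule-destabilising protein of growing axons, was at 0.0957 FPKM in siCTCF, 0.206 in siEED, 0.213 in siEZH2, 0.345 in siKDM1A, 0.367 in siBRCA1, 0.389 in siSMARCA4, 0.448 in siBRCA2, 0.560 in siFOXM1, 0.602 in siFOXA1, 0.668 in siRAD21, 0.942 in siPCAT1 and 1.17 in the library labelled siMALAT1, against 1.01 FPKM in the control. It was thus below the control in 11 of 12, and siPCAT1 and the library labelled siMALAT1 were nearest to it. The lowest difference, in siCTCF, was -0.88 with the offset of 1. With an offset of 0.1 it was -2.51, and 7 differences of STMN2 reached 2-fold, so the call depends on how values near 0 are treated. Its paralog STMN1, which is linked to cell division, was at 18.3 FPKM in siFOXM1, 18.6 in siEZH2 and 19.1 in siCTCF, against 76.0 FPKM in the control, and was at least 2-fold lower in 6 of 12. In siEED STMN1 was at 54.0 FPKM while STMN2 was among its lowest.

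ENO2, neuron-specific enolase, was the most abundant member. It was at 23.2 FPKM in siKDM1A, 29.8 in siBRCA1, 30.3 in siFOXA1, 32 in siEZH2, 37.6 in both siBRCA2 and siCTCF, 40.2 in siFOXM1, 41.6 in the library labelled siMALAT1, 42.6 in siEED, 46.0 in siSMARCA4, 49.9 in siPCAT1 and 54.6 in siRAD21, against 54.6 FPKM in the control. No library was above the control, and siRAD21 held the same value as the control, as can happen because the deposited libraries share a common distribution. The difference in siKDM1A, -1.20, was the 115th lowest of 15780 genes and the other 2-fold difference among the members besides those of GCG. So 2 of the 5 analysed members were 2-fold lower in siKDM1A, where 1.55% of all analysed genes were, and at most 1 was in any other library. With the other 11 knockdowns' median as the comparator, ENO2 stood at -0.77 in siKDM1A and 0 members were 2-fold lower there. With an offset of 0.1, siBRCA1 and siEED had 3 members 2-fold lower, as siKDM1A did.

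The ubiquitous enolase gene ENO1 lay between 270 FPKM in siSMARCA4 and 490 FPKM in siBRCA2, against 452 FPKM in the control, with no 2-fold difference. In siKDM1A it was at 314 FPKM. The muscle enolase gene ENO3 ranged from 2.66 FPKM in siBRCA1 to 10.0 FPKM in the library labelled siMALAT1, against 4.83 FPKM in the control. The genes most like ENO2 over the 13 libraries by Pearson's r were PPIP5K1, an inositol pyrophosphate kinase gene (r of 0.856), WDR72 (0.848) and PPP6R3, a phosphatase subunit gene (0.845). WDR72 was also lowest in siKDM1A, at 4.63 FPKM, against 10.8 FPKM in the control.

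UCHL1, the neuronal ubiquitin hydrolase, was listed at 0 in siKDM1A and was no higher than 0.249 FPKM, in siSMARCA4, against 0.0798 FPKM in the control. Its paralogs were abundant. UCHL3 was between 28.5 and 48.2 FPKM and UCHL5 between 8.95 and 19.3 FPKM, against 34.0 and 18.4 FPKM in the control. So the neuronal family member was near 0 in cells that carried the general ones. Over 8 analysed paralogs of the members, 7 of 96 differences were at least 2-fold lower, 6 of STMN1 and 1 of SYPL1, and 0 were higher, beside 2.04% lower and 1.1% higher over all gene and library pairs.

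**Figure D4:**
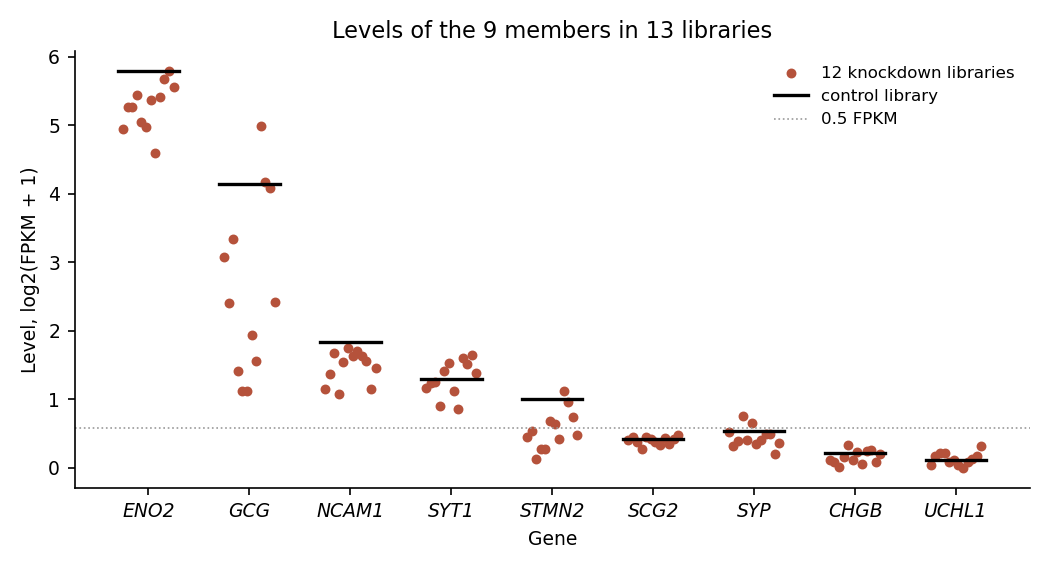
Levels of the 9 members with an entry (vertical axis, log2(FPKM + 1)), ordered by median, with 1 point for each of 12 knockdown libraries and a black bar for the control library. ENO2 lies highest, GCG spreads most, from 1.18 to 30.6 FPKM, and SCG2, SYP, CHGB and UCHL1 lie mostly below the dotted line at 0.5 FPKM.

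**Figure D5:**
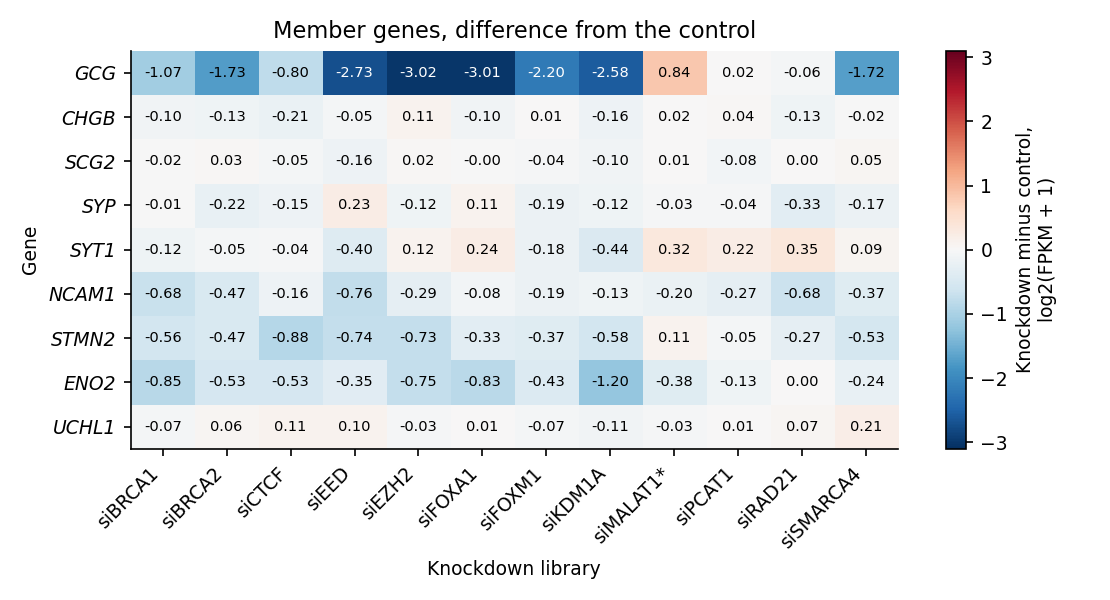
Difference of each member (rows) from the control in each knockdown library (columns), on the log2(FPKM + 1) scale, with the value written in each cell. The GCG row runs from -3.02 in siEZH2 to 0.84 in the library labelled siMALAT1 (asterisk, target not low), ENO2 reaches -1.20 in siKDM1A, and no cell is at or above 1.

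Over the 5 analysed members and 12 libraries there were 60 differences, of which 9 were at least 2-fold lower, or 15.0%, beside 2.04% of such pairs over all analysed genes. GCG gave 8 of the 9. Without GCG, 1 of 48 remained, 2.08%, which is about the background share with the offset of 1. At that offset STMN2, at 1.01 FPKM in the control, could hardly reach 2-fold lower. With an offset of 0.1, 19 of the 60 were at least 2-fold lower, those added being of STMN2 and NCAM1. Between 2.37% (siEED) and 7.47% (siFOXA1) of all analysed genes were then lower. At the offset of 1, the median difference of the 60 was -0.38, beside 0.02 over all gene and library pairs. Of the 60, 50, or 83.3%, were below 0, beside 46.9% over all gene and library pairs. The 12 differences of each member share 1 control value, so the 60 are not independent comparisons. NCAM1 was highest in the control library, and ENO2 was highest there and in siRAD21. Library by library, the median of the 5 was lowest in siEED at -0.74, in siEZH2 at -0.73 and in siBRCA1 at -0.68, and it was above 0 only in the library labelled siMALAT1, at 0.11. Over all 9 members with an entry the medians were nearer to 0 and in another order, at -0.35 in siEED, -0.22 in siBRCA2, and -0.12 in both siEZH2 and siBRCA1.

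Regulators of the neuroendocrine state were scarce. Of 14 neuroendocrine transcription factors on the list, 4 had an entry and 2 were analysed, and 0 of 24 differences reached 2-fold. Both genes were below 1 FPKM in the control, where a 2-fold lower call cannot occur on the log2(FPKM + 1) scale. The count of 0 thus speaks only to higher calls. FOXA2, a forkhead relative of FOXA1, was at 0.202 FPKM in siFOXA1, its lowest, and 0.998 FPKM in the library labelled siMALAT1, its highest, against 0.756 FPKM in the control. SOX11 lay between 0.177 FPKM in siBRCA1 and 0.963 FPKM in the library labelled siMALAT1, against 0.600 FPKM in the control. NEUROD1, a neurogenic and islet factor, was no higher than 0.229 FPKM and ONECUT2 no higher than 0.410 FPKM. REST itself was steady, between 9.12 FPKM in siEED and 12.7 FPKM in siFOXM1, against 10.3 FPKM in the control. Of 72 differences of 6 analysed REST complex genes, 1 reached 2-fold, that of the siRNA target KDM1A in its own library, at 4.55 FPKM against 23.8 FPKM in the control.

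Of 96 differences of 8 analysed luminal and androgen receptor genes, 2 were at least 2-fold lower and 5 at least 2-fold higher. Over all gene and library pairs, 2.04% were lower and 1.1% higher. Some of the differences were in libraries where members were low. In siFOXA1, where GCG was at 1.19 FPKM, the chaperone gene FKBP5 was at 4.61 FPKM, against 16.8 FPKM in the control. The serine protease gene TMPRSS2, at least 2-fold higher in 4 libraries, was at 52.8 FPKM in siFOXM1, against 19.4 FPKM in the control. Another of the 4 was siRAD21, at 42.8 FPKM, where no member was 2-fold lower. KLK2, a kallikrein gene below the minimum mean level, was at 1.70 FPKM in siKDM1A, where ENO2 was lowest, against 0.214 FPKM in the control. The part of these differences in the levels of the members was not tested.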

How the data were processed

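Per the labels' protocols, LNCaP-abl cells were lysed 72 h after siRNA transfection and column-purified RNA went into Illumina TruSeq libraries. Alignment with TopHat and quantification with Cufflinks on hg19 are named in the submitters' processing notes, without versions; RNA selection and strand use: not given in the sources used here. Log2 values of FPKM were deposited, 1 file for each of 13 libraries. Their floor is the log2 of 0.1, so an offset of 0.1 was assumed and subtracted. Sorted values differed between libraries by at most 0.0562, as they do after quantile normalization, a step no source here states. Differences in total RNA output cannot be seen in such values. Depth is unknown, and no counting intervals are given.

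Levels were expressed as log2(FPKM + 1). Genes with a mean of at least 0.5 FPKM were analysed, without 759 entries named as small RNAs, leaving 15780. Calculations used Python 3.11.15, numpy 2.4.6 and pandas 2.3.3, and were tested on simulated data. The members and companion lists were chosen with earlier results of these data known. All members are described, with the 3 genes most like each member that spanned 1 log2 unit, its nearest protein-coding neighbours in RefSeq, and list genes that reached 2-fold. Other list genes were named after their values were seen, and some results on luminal genes are not reported here. Alternatives were an offset of 0.1, no filter, the median of the other 11 knockdowns as reference, quantile normalization, centring on the median, and Spearman's rho.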

Additional observations from a re-analysis of the deposited data

How the results depend on the processing

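No paired analysis was possible because each group had 1 library and no comparison had a test. The members' differences stayed on the same side of 2-fold with no filter on low values, with quantile normalization and with centring on the median of all genes, in all 60 cases. These settings could move little, so the agreement is no support. Dropping the filter leaves the 60 values as they were. The libraries already shared nearly the same distribution, with median differences over all genes between 0.006 in siEED and 0.054 in siEZH2. With an offset of 0.1, 19 of the 60 differences were at least 2-fold lower in place of 9, and 0 were higher, while between 2.37% (siEED) and 7.47% (siFOXA1) of all analysed genes were lower. The 10 added were 7 of STMN2 and 3 of NCAM1, genes with low levels. The number of members at 2-fold then became 3 in siBRCA1, siEED and siKDM1A, 2 in siBRCA2, siEZH2 and siSMARCA4, and 1 in siCTCF and siRAD21. With the other 11 knockdowns' median as reference, 3 differences were at least 2-fold lower and 3 higher, while 0.203% (siSMARCA4) to 2.49% (siFOXA1) of all analysed genes were lower and 0.120% to 2.40% higher in the same libraries. GCG then stood 2.57 above that median in the library labelled siMALAT1, 1.75 in siPCAT1 and 1.67 in siRAD21, 1 member in each, and 0 members reached 2-fold in siBRCA1, siBRCA2, siFOXM1, siKDM1A and siSMARCA4. The sign of GCG turned in 4 libraries, to 0.66 in siBRCA1, 0.011 in siSMARCA4, 0.93 in siCTCF and the 1.67 of siRAD21. The cause of these moves was not tested. Leaving out the library labelled siMALAT1, or that library with siBRCA2 and siPCAT1, was chosen after seeing the data and left 9 and 8 lower differences. By Spearman's rho, ORC4 (0.963) and TMEM212 (0.957) were again the genes most like GCG, and GPR126 (0.896) came 4th. For ENO2, PPIP5K1 was again first, while WDR72 came 6th and PPP6R3 7th. With 1 control library, an unusual value of a gene in it would move all 12 differences of that gene the same way.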
